A study of Mus musculus with 21 samples.

Results

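The 38 genes described here encode DNA repair proteins, among them the nucleotide excision repair factors that remove UV photoproducts. Their expression was followed in the dorsal skin of mice irradiated with UV for up to 8 weeks. They were chosen by name, and a gene was read from the probe sets annotated to it alone. All 38 had a measured value among the 17403 genes tested, through 84 of their 89 probe sets. RNA from whole skin of female albino hairless mice (Hos:HR-1) that were 6 weeks old on delivery was hybridised to Affymetrix whole-genome mouse arrays. There were 7 groups of 3 arrays. Non-irradiated mice were sampled at week 1 and week 8, here control week 1 and control week 8. Irradiated mice were sampled after 1, 2, 4, 6 and 8 weeks of exposure, 3 times per week, at a dose that started at 1 minimal erythema dose (MED, 100 mJ per cm2) and was raised to a ceiling of 4 MED. All groups shared the strain, sex and skin site. Irradiated mice of week 8 therefore differ from control week 1 in age as well as in exposure, and only control week 8 was matched to them in time. Arrays of a group came from separate mice per the methods, and the p-values below measure the spread among the 3 arrays of a group, pooled over all 7 groups.

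Nucleotide excision repair cuts out stretches of DNA that carry bulky lesions, such as the pyrimidine dimers left by UVB. XPC with its partners, or the DDB1-DDB2 complex, finds the lesion across the genome, whereas ERCC6 and ERCC8 act where a lesion stalls RNA polymerase. The helicases of TFIIH open the helix, XPA and RPA check the damage, and the nucleases ERCC5 and ERCC1-ERCC4 cut on either side before a DNA polymerase and a ligase fill the gap. Base excision repair removes oxidised or deaminated bases, mismatch repair corrects copying errors, and BRCA1, BRCA2 and FANCD2 deal with crosslinks and broken ends.

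Most DNA repair genes showed no change that passed the test at any week. Of the 38 genes, 10 were called in at least 1 of 10 comparisons (26.3%), beside 25.7% of all genes, and 28 were called in none. Exo1, the exonuclease of mismatch repair and resection, rose by 1.00 on the log2 scale (2.00-fold) between control week 1 and UV week 8. The kinase gene Atm fell by 0.63 in the same comparison at the probe set used, while its second probe set had the opposite sign. Smaller falls were found for Xrcc1 and Msh3. Against the time-matched control week 8 the rise of Exo1 was called again, whereas the differences of Atm (-0.38), Xrcc1 (-0.33) and Msh3 (-0.08) did not pass. Of the 16 nucleotide excision repair genes that act from damage recognition to incision, 1 rose (Cetn2), 0 fell and 15 did not pass at week 8 against control week 1, beside 5.72% of all genes higher and 8.35% lower (limma). Their differences ran from -0.90 to 0.45, with 2 higher and 4 lower at an unadjusted p below 0.05. Against control week 8 the difference of Cetn2 was 0.32 and did not pass. Without array 551 of UV week 8, 2 of the 16 rose and 6 fell against control week 1, beside 20.5% and 20.1% of all genes. The arrays then left at week 8 both have a high beta-actin 3′/5′ ratio, described below. A gene was called when its adjusted p did not exceed 0.05 in limma, a linear model fitted to all 21 arrays with Benjamini-Hochberg adjustment over all probe sets, with no minimum fold change. Every level below is a log2 intensity and every change is a difference between 2 group means on that scale.

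The arrays differed in RNA quality. The beta-actin 3′/5′ log2 ratio, which rises when labelled cDNA does not reach the 5′ end of a transcript, ran from 2.26 to 5.14 and exceeded 4 in 8 arrays: 1 of control week 1 (array 12), 2 of UV week 1 (arrays 112 and 114), 1 of UV week 4 (array 333), 2 of UV week 6 (arrays 441 and 445) and 2 of UV week 8 (arrays 552 and 555). The group mean ± SD was 3.22 ± 1.32 in control week 1, 3.33 ± 0.20 in control week 8 and 4.27 ± 1.30 in UV week 8 (n = 3 each). Array 551 of UV week 8, with a ratio of 2.77, stood apart from its replicates and took the lowest weight of all arrays, 0.162, when limma weighted arrays by quality. Correlations between replicates ranged from 0.957 to 0.996. In the 13 arrays with a ratio of at most 4, UV weeks 1, 6 and 8 keep 1 array each (116, 443 and 551), so a p from those arrays takes the spread from other groups and assumes that the lone array varies as they do. The part of RNA quality in any change was not tested.

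Skin markers were present in every array, such as Krt14 of basal keratinocytes (12.13 to 14.14), Krt10 of suprabasal keratinocytes (14.03 to 14.53) and Col1a2 of fibroblasts (12.07 to 13.89). Of the 11 hair follicle markers, 10 fell at UV week 8 against control week 1, with a median change of -3.98. Their summed level ran from 14.93 to 15.57 in control week 1, 13.54 to 14.42 in control week 8 and 9.49 to 12.81 in UV week 8. In the same comparison 6 of 8 skeletal muscle, 3 of 6 adipocyte, 3 of 8 dermal fibroblast and 2 of 8 basal keratinocyte markers fell. None of the 8 suprabasal keratinocyte markers changed. Of all genes 5.72% rose and 8.35% fell there. The mean summed adipocyte level was 14.35 in control week 1, 13.87 in control week 8 and 13.46 in UV week 8. The corresponding means were 16.06, 15.93 and 15.01 for skeletal muscle, 16.24, 16.16 and 15.67 for fibroblast and 14.63, 14.63 and 14.15 for basal keratinocyte markers. No defining marker was at 0, but none could be, because the smallest intensity of any probe set was 4.352. In RNA of whole skin, fewer cells of a type and less RNA per cell cannot be told apart, and the part of tissue makeup in the changes of the repair genes was not tested.

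**Figure D1:**
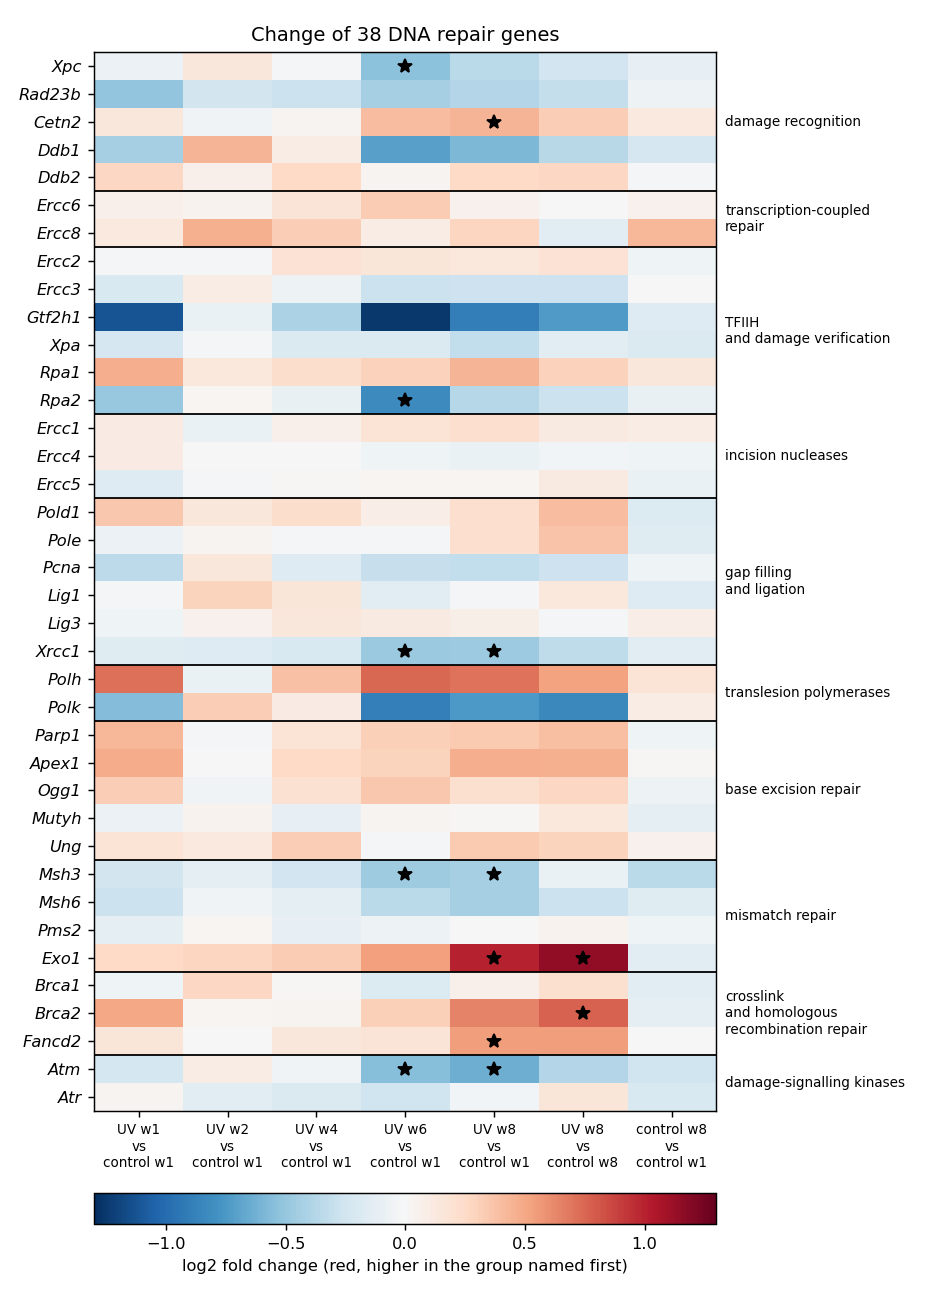
Colour map of the log2 fold change of the 38 DNA repair genes (rows, grouped by role) in 7 comparisons (columns), with a star where the gene was called. Stars are absent at weeks 1, 2 and 4 and between the controls, and Exo1 shows the deepest red at UV week 8.

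The calls are given week by week beside those of all genes. After 1 week of UV, 0 genes were higher and 0 lower than control week 1 (limma), against 0% higher and 0.0115% lower among all genes tested, and 5 higher and 3 lower at an unadjusted p below 0.05. After 2 weeks the counts were again 0 and 0, against 0.0287% and 0.046% of all genes, with 1 higher and 0 lower at an unadjusted p below 0.05. After 4 weeks they were 0 and 0, against 0.517% and 1.16%, with 1 higher and 0 lower unadjusted. The first calls came at week 6, when 0 repair genes rose and 5 fell, while 5.29% of all genes rose and 7.65% fell.

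At week 8 against control week 1, 3 repair genes rose and 3 fell, against 5.72% and 8.35% of all genes. In total 15.8% of the repair genes were called there and 14.1% of all genes, so the share of repair genes that changed was close to that of the array as a whole. Against control week 8, 2 rose and 0 fell, compared with 2.8% and 5.29% of all genes. The median change of the 38 genes was 0.04 against control week 1 and 0.12 against control week 8, beside 0.05 and 0.06 for all genes. Between the controls 0 repair genes rose and 0 fell (limma, 1 and 1 at an unadjusted p below 0.05), and 0.046% and 0.0517% of all genes did. The comparisons with control week 1 share those 3 arrays.

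Pooling all 15 irradiated arrays against the 6 controls gave 1 repair gene higher and 1 lower, against 6.81% and 9.84% of all genes. This was 5.26% of the repair genes and 16.7% of all genes. Between the late weeks (6 and 8) and the early weeks (1 and 2) of UV, 2 rose and 2 fell, against 2.75% and 4.42%. The change at week 8, each against its own control, exceeded or fell short of that at week 1 in 0 repair genes and in 0% of all genes in both directions (limma), with 1 repair gene higher and 0 lower at an unadjusted p below 0.05. That gene was Exo1, with a difference of 0.89 ± 0.28 (SE), an unadjusted p of 0.00452 and an adjusted p of 0.995 in limma.

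Of the single arrays left out in turn, array 551 moved the week 8 counts most. Without it, 8 repair genes rose and 10 fell at week 8 against control week 1, but so did 20.5% and 20.1% of all genes. The share called was then 47.4% of the repair genes and 40.6% of all genes. That fit keeps only arrays 552 and 555 at week 8, both with a beta-actin ratio above 4. Without array 12 of control week 1 the counts were 6 higher and 1 lower, against 7.37% and 9.19% of all genes.

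**Figure D2:**
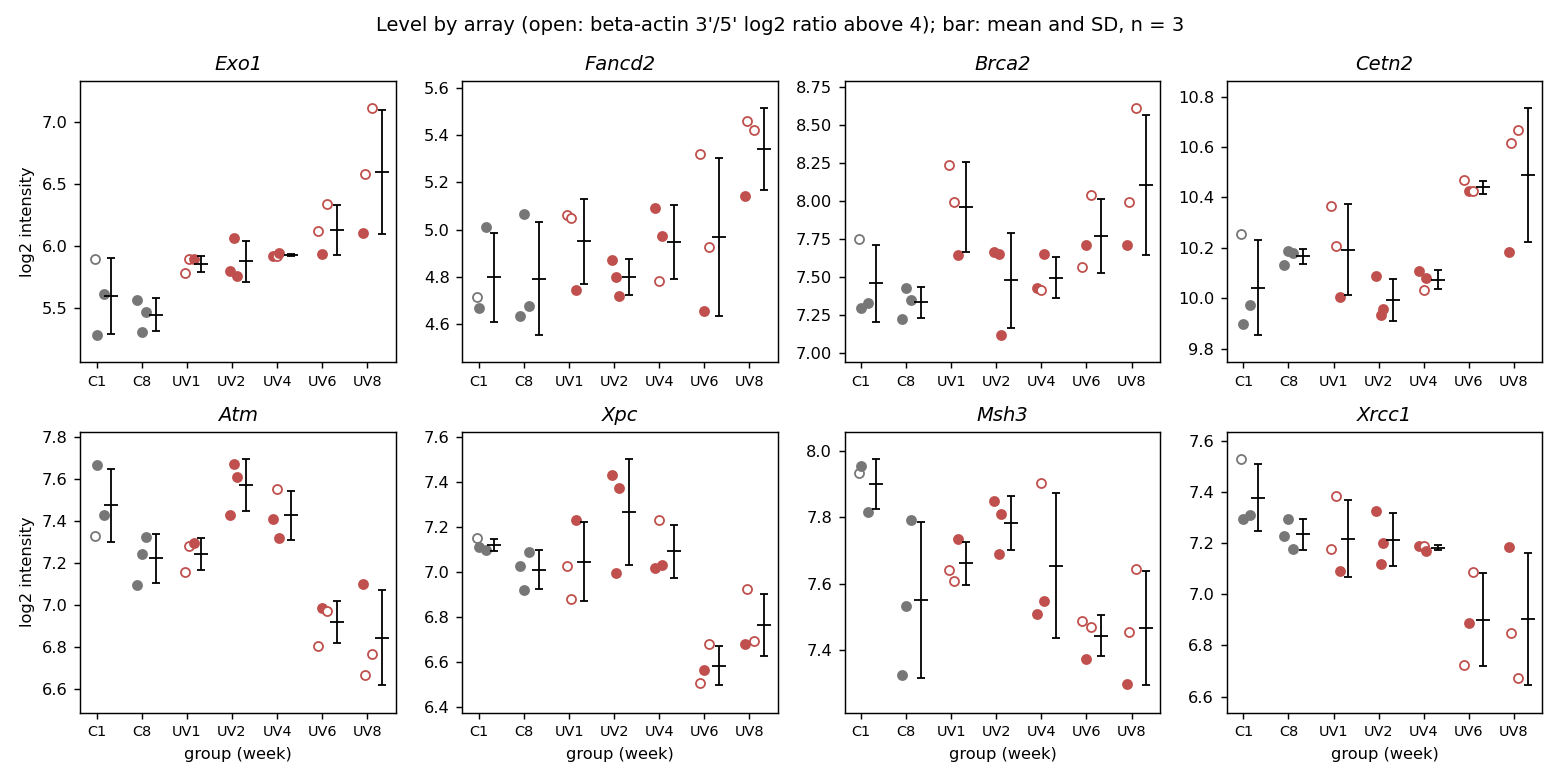
Log2 intensity of 8 DNA repair genes in each of the 21 arrays (C, control; UV, irradiated; the digit is the week), with open circles for arrays whose beta-actin ratio exceeds 4 and a bar for the group mean and SD (n = 3). Exo1 is highest at UV week 8 (6.11 to 7.11), and Atm is lower at UV weeks 6 and 8 than at UV weeks 1 and 2 in every array.

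Among the genes that find the lesion, Xpc, whose product recognises helix distortion, fell late. Its level was 7.15, 7.11 and 7.10 in control week 1 and 7.03, 6.92 and 7.09 in control week 8. It was 7.03, 6.88 and 7.23 at UV week 1, 7.43, 7.0 and 7.37 at UV week 2, and 7.01, 7.23 and 7.03 at UV week 4. It was 6.51, 6.56 and 6.68 at UV week 6 and 6.68, 6.92 and 6.69 at UV week 8. All 3 arrays of UV week 6 lay below every array of control week 1, and the UV week 8 arrays did not pass the lowest of those controls either. The change was -0.54 ± 0.13 (SE, adjusted p = 0.0149) at week 6 and -0.35 ± 0.13 at week 8, which did not pass (adjusted p = 0.0736 in limma). Against the time-matched control week 8 the difference at UV week 8 was -0.24 and did not pass. Late against early UV weeks it was -0.48 ± 0.09 (adjusted p = 0.00563 in limma), and this call was kept when any 1 array was left out. In the 13 arrays of lower ratio, where week 6 is array 443 alone, the change was again -0.54 and did not pass (adjusted p = 0.0864 in limma).

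Rad23b, which stabilises XPC, stood between 9.64 and 10.05 in the 6 control arrays and between 9.10 and 9.81 in the 15 irradiated arrays, so the groups overlapped. It was lower in irradiated skin by -0.33 ± 0.10 (SE, adjusted p = 0.0358 in limma). Its other probe sets gave -0.18 and 0.20 at week 8, where the probe set used gave -0.38. The call was lost without any of 8 single arrays, among them arrays 13 and 16 of control week 1 and all 3 of control week 8.

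Cetn2, a centrin that joins XPC in the recognition complex, rose at week 8 against control week 1. It read 10.25, 9.90 and 9.97 in control week 1, 10.13, 10.19 and 10.18 in control week 8, 10.47, 10.43 and 10.43 at UV week 6, and 10.18, 10.62 and 10.67 at UV week 8. Array 551 lay among the controls and the other two lay above them. The change at week 8 against control week 1 was 0.45 ± 0.13 (SE, adjusted p = 0.0356 in limma). The second probe set of Cetn2 gave -0.45, in the opposite direction, so the rise holds for 1 of 2 probe sets. The week 8 call was lost without array 13, 16, 552 or 555, and the change was 0.25 in the 13 arrays of lower ratio. Against control week 8 the difference was 0.32 and did not pass, and it was 0.02 in those 13 arrays.

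Ddb2, a UV-damage sensor, changed in none of the 10 comparisons. Its levels were 7.90, 7.52 and 7.38 in control week 1, 7.32, 7.75 and 7.70 in control week 8, 8.15, 7.89 and 7.56 at UV week 1, and 7.75, 7.83 and 7.99 at UV week 8. The arrays of these groups overlapped. At week 8 the difference was 0.25, with a 95% interval from -0.12 to 0.63. Ddb1, its partner, ran from 8.27 to 10.11 across the arrays, with an SD of 0.55 within groups, and its change of -0.58 at week 8 did not pass (adjusted p = 0.317 in limma). The same difference was 0.36 in the 13 arrays of lower ratio, where week 8 is array 551. Without array 551 it was -1.16 and passed (adjusted p = 0.0114 in limma).

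The transcription-coupled repair genes Ercc6 and Ercc8 passed in no comparison. Ercc8 showed its largest difference at UV week 2 (0.47). It was higher in control week 8 than in control week 1 by 0.43 without overlap, which did not pass (adjusted p = 0.875 in limma). Ercc6 was dim, with a probe set above the 20th percentile of intensities in fewer than 3 arrays, whereas the other 37 genes exceeded it in all 21, so little can be said of Ercc6.

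Of the TFIIH and damage verification genes, Rpa2 fell at week 6 and no other gene of the group passed in the main fit. Rpa2, the middle subunit of the single-strand binding protein RPA, read 7.26, 7.20 and 6.77 in control week 1, 6.07, 6.59 and 6.10 at UV week 6, and 7.32, 5.90 and 6.89 at UV week 8. The week 6 arrays lay below all controls of week 1, and the week 8 arrays ran across them. The week 6 change was -0.83 ± 0.26 (SE, adjusted p = 0.0491 in limma), and it was lost in 16 of 21 fits that each left out 1 array. Without the arrays of high ratio it was -0.40. Rpa1, the large subunit, differed by 0.44 at week 8 (adjusted p = 0.0608 in limma), and by 0.55 without array 551 (adjusted p = 0.0121 in limma).

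Xpa, which verifies the lesion, read 7.41, 7.33 and 7.09 in control week 1, 7.17, 6.88 and 7.22 in control week 8, and 7.14, 6.78 and 6.94 at UV week 8. These groups overlapped. The difference at week 8 was -0.32, with an interval from -0.61 to -0.03 and an adjusted p of 0.123 in limma, and it was -0.14 against control week 8. Without array 551 it was -0.41 and passed (adjusted p = 0.036 in limma). The helicase genes Ercc2 and Ercc3 differed by 0.13 and -0.27, and neither passed, although Ercc3 did without array 551 (-0.45, adjusted p = 0.0156 in limma).

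The nuclease genes were among the most level of all. Ercc1, Ercc4 and Ercc5 differed by 0.21, -0.09 and 0.02 at week 8, and the group means of Ercc4 and of Ercc5 each spanned 0.19 over the 7 groups. For all genes tested the median span was 0.48, and for the 38 repair genes 0.46. The narrowest spans were those of the mismatch repair gene Pms2 (0.15) and of Mutyh (0.17), the glycosylase that removes adenine opposite oxidised guanine. Among the largest were those of Gtf2h1 (1.25), Polk (1.21), Exo1 and Ddb1 (1.15 each).

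**Figure D3:**
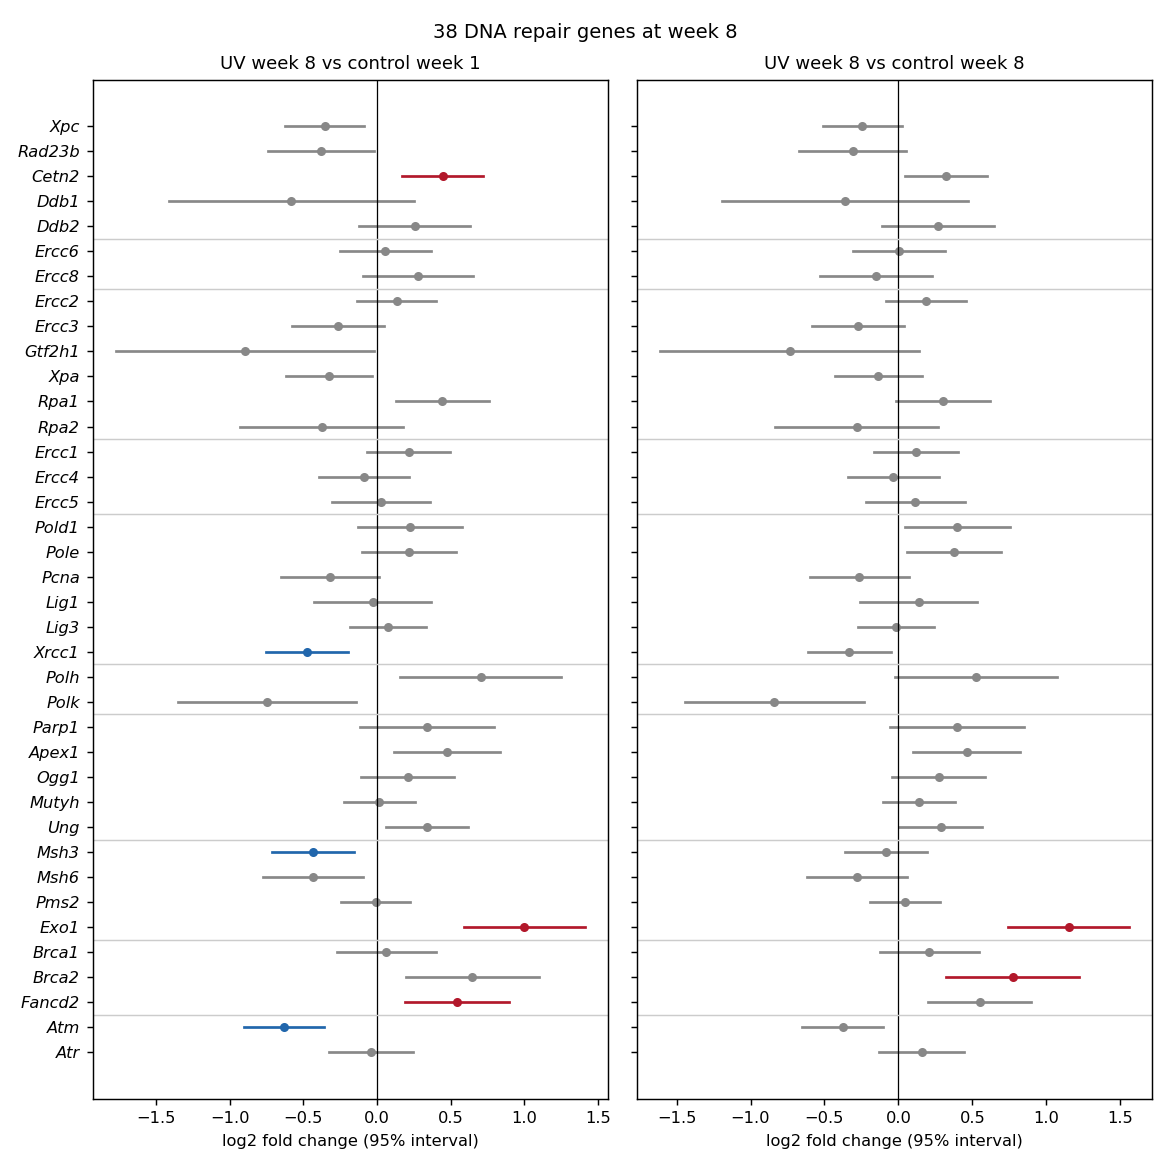
Log2 fold change at UV week 8 against control week 1 (left) and against control week 8 (right) for the 38 DNA repair genes, with 95% intervals from the pooled spread; red marks genes that rose, blue genes that fell. Xrcc1, Msh3 and Atm are blue only on the left, and Exo1 is red on both sides.

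In gap filling and ligation, Xrcc1 fell and the replicative genes did not pass. Xrcc1, the scaffold that holds DNA ligase III at a nick, read 7.53, 7.29 and 7.31 in control week 1 and 7.23, 7.29 and 7.18 in control week 8. It read 6.73, 6.89 and 7.09 at UV week 6 and 7.18, 6.85 and 6.67 at UV week 8. Both irradiated groups lay below control week 1 and the week 8 arrays reached into control week 8. Its change was -0.48 ± 0.13 (SE) at week 6 (adjusted p = 0.0293) and again -0.48 ± 0.13 at week 8 (adjusted p = 0.0291 in limma). Against control week 8 it was -0.33 (adjusted p = 0.122 in limma), and without the arrays of high ratio the week 8 change was -0.12. The week 8 call was lost without array 552 or 555 or any 1 array of control week 1, and the week 6 call without array 441 or 443 or any 1 of those controls.

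Pcna, the sliding clamp of replication and repair synthesis, read 11.74, 11.95 and 11.92 in control week 1, 11.88, 11.69 and 11.87 in control week 8, and 11.74, 11.22 and 11.69 at UV week 8. The highest week 8 array and the lowest array of control week 1 both read 11.74 after rounding. The difference was -0.32 (interval -0.66 to 0.01, adjusted p = 0.175 in limma). The polymerase genes Pold1 and Pole differed by 0.40 and 0.37 against control week 8, Lig1 by -0.03 and Lig3 by 0.07 against control week 1, and none of them passed.

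The translesion polymerase genes Polh and Polk, whose products copy past lesions, had large differences of opposite sign that did not pass in the main fit. Polh, the enzyme that bypasses thymine dimers, read 8.71, 7.88 and 8.24 in control week 1, 8.38, 8.73 and 8.25 in control week 8, 8.85, 8.85 and 9.37 at UV week 6, and 8.41, 9.29 and 9.24 at UV week 8. The week 6 arrays lay above control week 1 and array 551 lay within it. The differences from control week 1 were 0.75 at week 6 (adjusted p = 0.0653) and 0.70 at week 8 (adjusted p = 0.0798 in limma). Polk differed by -0.89 at week 6 (adjusted p = 0.0518 in limma) and by -0.75 at week 8. Without array 551 both passed at week 8, Polh at 0.99 and Polk at -1.19. In the 13 arrays of lower ratio they were 0.35 and -0.01 at week 8 and 0.79 and -0.73 at week 6, each read from 1 irradiated array. With the beta-actin ratio as covariate both passed at week 6, Polh at 0.59 (adjusted p = 0.0426) and Polk at -0.70 (adjusted p = 0.0205 in limma). At week 8 they were then 0.44 and -0.43 and did not pass (adjusted p = 0.16 and 0.175 in limma).

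These 2 genes, with Gtf2h1, Ddb1 and Rpa2, were those whose replicates lay farthest apart. Gtf2h1 encodes the p62 subunit of TFIIH, and it differed from control week 1 by -1.12, -1.25 and -0.90 at UV weeks 1, 6 and 8 (adjusted p = 0.186, 0.0567 and 0.151 in limma). Its level was 5.01 to 6.85 in the 8 arrays with a ratio above 4 and 6.54 to 7.61 in the other 13. The corresponding ranges were 8.27 to 9.69 and 9.10 to 10.11 for Ddb1, 5.07 to 6.60 and 5.83 to 6.92 for Polk, and 8.60 to 9.37 and 7.88 to 8.85 for Polh. The first 3 genes thus tended to be lower, and Polh higher, in the arrays of high ratio. In those 13 arrays Gtf2h1 differed from control week 1 by -0.29 at week 8 and by -1.0 at week 6, each read from 1 irradiated array. The difference in those arrays was -0.82 at week 4 and -0.42 over all UV weeks against both controls. With the beta-actin ratio as covariate, Gtf2h1 changed by -0.75, -0.94 and -0.39 at weeks 1, 6 and 8 (adjusted p = 0.135, 0.0107 and 0.31 in limma). Over all UV weeks Gtf2h1 then differed by -0.47 (adjusted p = 0.0212 in limma). Without array 551 its week 8 change was -1.38 (adjusted p = 0.012 in limma).

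**Figure D4:**
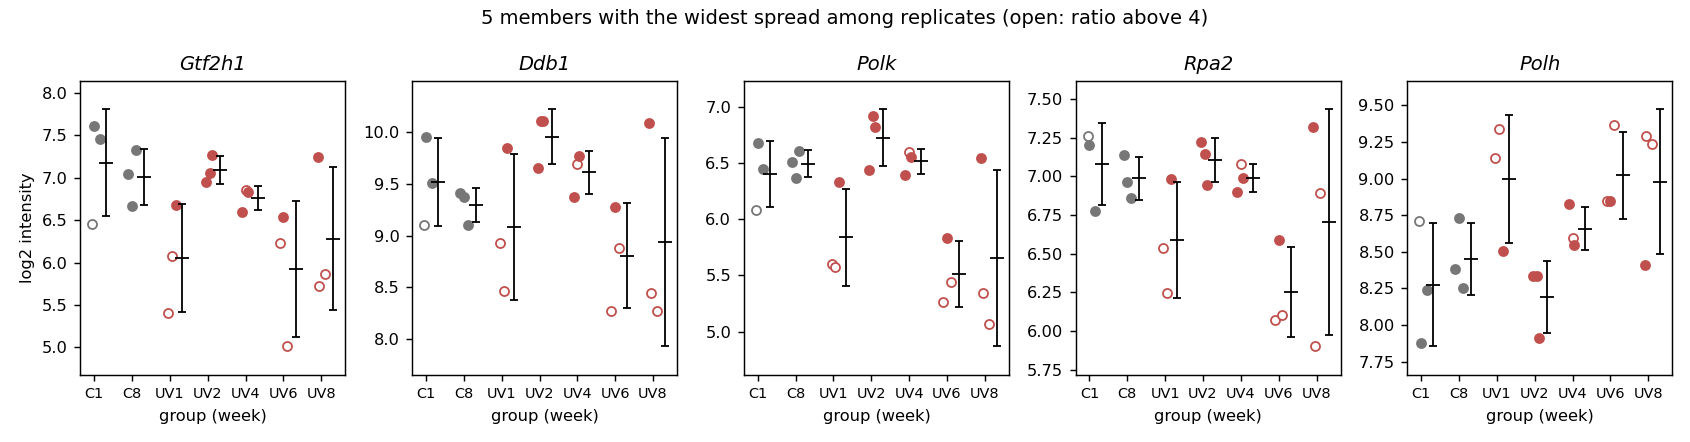
Log2 intensity by array of the 5 DNA repair genes with the widest spread among replicates, drawn as in the plot of called genes, with open circles for arrays of high beta-actin ratio. At UV week 8 the filled circle (array 551) lies far from both open ones in Gtf2h1, Ddb1, Polk and Polh.

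None of the 5 base excision repair genes passed in any comparison of all 21 arrays, although their differences at week 8 all lay above 0. Against control week 1, Apex1, the endonuclease that cuts at a lost base, differed by 0.48 (adjusted p = 0.0732), Parp1, the strand-break sensor, by 0.34, Ung, the uracil glycosylase, by 0.34 (adjusted p = 0.0971 in limma), Ogg1, the oxidised guanine glycosylase, by 0.21, and Mutyh by 0.02. The median of the 5 was 0.34, beside 0.05 for all genes. The probe sets of Apex1 gave 0.48, 0.29 and -0.25, and those of Parp1 ran from -0.51 to 0.34, so the sign depended on the probe set. Without array 551, Apex1 (0.63, adjusted p = 0.011) and Parp1 (0.64, adjusted p = 0.0134 in limma) passed, and in the 13 arrays of lower ratio they read 0.33 and -0.07.

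Mismatch repair held the largest rise. Exo1 read 5.89, 5.28 and 5.62 in control week 1 and 5.57, 5.31 and 5.47 in control week 8. It read 5.78, 5.89 and 5.89 at UV week 1, 5.80, 6.07 and 5.76 at UV week 2, and 5.92, 5.92 and 5.94 at UV week 4. It read 6.12, 5.93 and 6.34 at UV week 6 and 6.11, 6.58 and 7.11 at UV week 8. The means climbed from 5.45 ± 0.13 (SD, n = 3) in control week 8 to 6.60 ± 0.50 at UV week 8, and every UV week 8 array lay above all 6 controls.

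The rise of Exo1 at week 8 was 1.00 ± 0.19 (SE, adjusted p = 0.00456) against control week 1 and 1.15 ± 0.19 (2.22-fold, adjusted p = 0.0042 in limma) against control week 8. Over all UV weeks it was 0.55 ± 0.12 (adjusted p = 0.00499 in limma). These calls were kept when any 1 array was left out, with the first ranging from 0.74 to 1.25. In the 13 arrays of lower ratio, where weeks 6 and 8 are 1 array each (443 and 551), the week 8 change was 0.66 (adjusted p = 0.101), and the change over all UV weeks was 0.50 (adjusted p = 0.00696 in limma). The second probe set of Exo1 gave 0.29 and 0.17 in the week 8 comparisons and passed in neither. Exo1 is also among the genes the study itself listed from these samples, so its direction here is not independent evidence.

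Msh3, a partner in the recognition of insertion loops, read 7.93, 7.95 and 7.81 in control week 1 and 7.32, 7.53 and 7.79 in control week 8. It read 7.49, 7.37 and 7.47 at UV week 6 and 7.30, 7.45 and 7.64 at UV week 8. Both irradiated groups lay below control week 1 and overlapped control week 8. The change was -0.46 ± 0.13 (SE, adjusted p = 0.0345) at week 6 and -0.44 ± 0.13 at week 8 (adjusted p = 0.041 in limma), and it was -0.08 against control week 8 (adjusted p = 0.693 in limma). Unexposed skin of week 8 differed from that of week 1 by -0.35 (adjusted p = 0.755 in limma). The week 8 call was lost in 9 of 21 fits that each left out 1 array, array 551 among them, and the week 6 call in 6, those without an array of either group compared. Msh6 differed by -0.43 at week 8 (adjusted p = 0.0806), or -0.53 without array 551 (adjusted p = 0.0254 in limma), and Pms2 by -0.01.

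Of the crosslink and recombination genes, Fancd2 and Brca2 rose at week 8, each against 1 of the controls, and Brca1 passed in none. Fancd2, the crosslink repair protein that is ubiquitinated at stalled forks, read 4.72, 4.67 and 5.01 in control week 1, 4.63, 5.07 and 4.68 in control week 8, and 5.14, 5.46 and 5.42 at UV week 8. All week 8 arrays lay above the 6 controls. The change was 0.54 ± 0.17 (SE, adjusted p = 0.0421) against control week 1 and 0.55 ± 0.17 (adjusted p = 0.0539 in limma) against control week 8. The call against control week 1 was lost in 9 of 21 fits that each left out 1 array.

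Brca2, a tumour suppressor that acts in homologous recombination, read 7.75, 7.30 and 7.33 in control week 1, 7.23, 7.43 and 7.35 in control week 8, and 7.71, 7.99 and 8.61 at UV week 8. The week 8 arrays cleared control week 8, while array 12 of control week 1 lay above array 551. The change was 0.77 ± 0.21 (SE, 1.71-fold, adjusted p = 0.0396) against control week 8 and 0.65 ± 0.21 (adjusted p = 0.0555 in limma) against control week 1. The call was lost without any of 6 single arrays, among them arrays 552 and 555 and all 3 of control week 8. In the 13 arrays of lower ratio Fancd2 changed by 0.30 and Brca2 by 0.40 against control week 1, neither of which passed (adjusted p = 0.529 and 0.412 in limma).

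Of the kinase genes Atm and Atr, whose products signal broken and single-stranded DNA, Atm fell late and Atr passed in no comparison. Atm read 7.33, 7.67 and 7.43 in control week 1 and 7.10, 7.24 and 7.32 in control week 8. It read 7.16, 7.28 and 7.30 at UV week 1, 7.43, 7.67 and 7.61 at UV week 2, and 7.41, 7.55 and 7.32 at UV week 4. It read 6.80, 6.98 and 6.97 at UV week 6 and 7.10, 6.66 and 6.77 at UV week 8. Every array of UV weeks 6 and 8 lay below every array of UV weeks 1 and 2 and of control week 1.

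The change of Atm was -0.56 ± 0.13 (SE, adjusted p = 0.0134) at week 6 and -0.63 ± 0.13 (1.55-fold lower, adjusted p = 0.00595 in limma) at week 8. Late against early weeks it was -0.53 ± 0.09 (adjusted p = 0.00362 in limma). Against control week 8 the difference was -0.38 (adjusted p = 0.0774 in limma), and control week 8 itself lay below control week 1 without overlap, by -0.25. The second probe set of Atm gave 0.27 at week 8, in the opposite direction, so the fall holds only for the probe set used. Without the 8 arrays of high ratio the week 6 change was -0.57 (adjusted p = 0.0602) and the week 8 change -0.45 (adjusted p = 0.21 in limma). Atr differed by -0.04 at week 8, with an interval from -0.33 to 0.25.

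**Figure D5:**
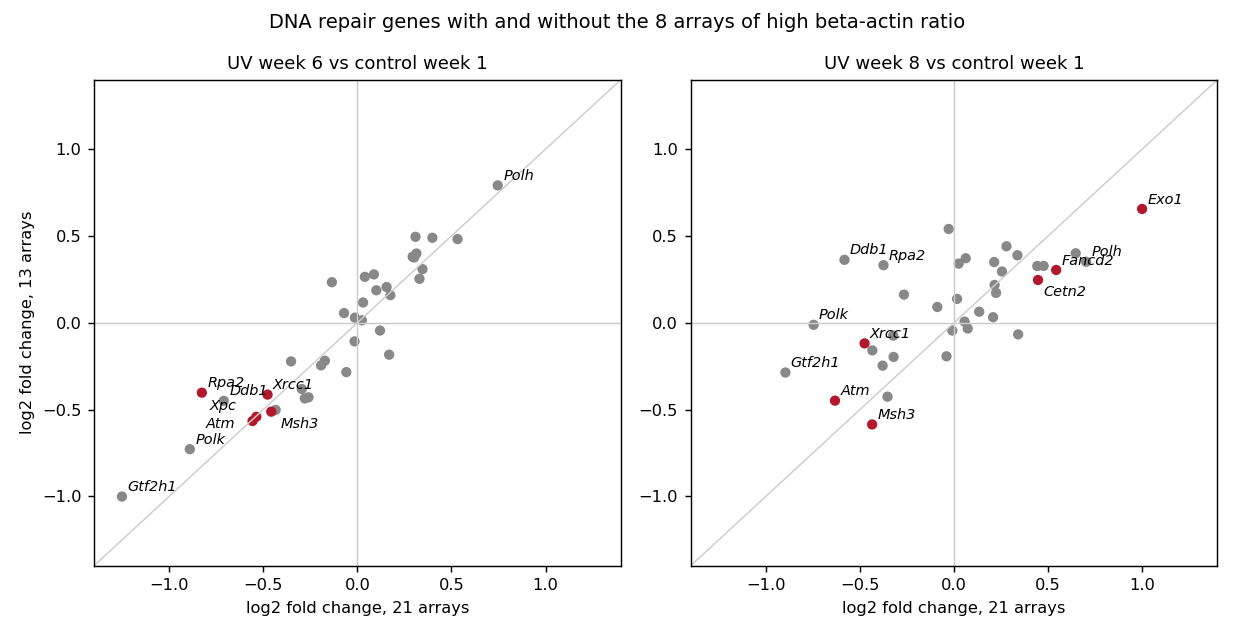
Log2 fold change of the 38 DNA repair genes against control week 1 in all 21 arrays (horizontal) and in the 13 arrays with a beta-actin ratio of at most 4 (vertical), at UV week 6 (left) and UV week 8 (right), with called genes in red and the line of equal values in grey. At week 8 the values of Ddb1 and Rpa2 change sign (to 0.36 and 0.33) and that of Polk moves to -0.01.

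For 3 of the called genes the upstream sequence is shown, because Atm and Msh3 fell against control week 1 at weeks 6 and 8, and Brca2 rose against control week 8. In no single comparison were both directions called among these genes. Sequences are the 250 bases before the transcription start in RefSeq on build GRCm38.p6, on the strand of the gene, and 32 of the 38 genes, 7 of the 10 called ones among them, had an entry. Capitals mark matches, on either strand, to the GC box GGGCGG, the CCAAT box CCAAT, the cAMP response element TGACGTCA or the E2F-type letters TTTCGCGC, TTTGGCGC and TTTCCCGC. Brca2 lies on the plus strand at chr5:150522371-150522620, Atm on the minus strand at chr9:53536672-53536921 and Msh3 on the minus strand at chr13:92355004-92355253.
Brca2: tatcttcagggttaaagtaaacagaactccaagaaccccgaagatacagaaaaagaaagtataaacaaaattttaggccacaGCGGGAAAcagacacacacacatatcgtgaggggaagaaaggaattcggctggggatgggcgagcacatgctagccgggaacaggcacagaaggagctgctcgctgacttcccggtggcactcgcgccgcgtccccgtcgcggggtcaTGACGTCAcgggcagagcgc
Atm: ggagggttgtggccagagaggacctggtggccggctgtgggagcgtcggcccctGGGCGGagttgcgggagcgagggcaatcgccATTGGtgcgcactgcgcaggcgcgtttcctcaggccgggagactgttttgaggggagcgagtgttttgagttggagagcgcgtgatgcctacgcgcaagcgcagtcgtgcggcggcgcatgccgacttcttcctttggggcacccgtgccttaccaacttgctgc
Msh3: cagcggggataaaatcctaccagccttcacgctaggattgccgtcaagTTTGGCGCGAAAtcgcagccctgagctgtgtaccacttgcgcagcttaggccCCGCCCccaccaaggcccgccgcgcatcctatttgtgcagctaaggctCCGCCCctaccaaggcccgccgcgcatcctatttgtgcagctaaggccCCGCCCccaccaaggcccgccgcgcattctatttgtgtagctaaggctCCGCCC
The window of Brca2 held 1 E2F-type match and 1 cAMP response element, that of Atm 1 GC box and 1 CCAAT box, and that of Msh3 4 GC boxes and a pair of E2F-type matches that overlap in 1 run of letters. Any of the 3 E2F-type strings was found in 1.78% of the 27025 genes with an entry and in 2 of the 32 repair genes, Msh3 and Brca2. The GC box was found in 35.4% of all genes and 24 of the 32 repair genes, and the CCAAT box in 37.5% and 18 of 32. Atm and Msh3, which both fell, shared the GC box, and the E2F-type letters were in 1 gene that fell and in 1 that rose.

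The other repair genes on the lists used numbered 87 measured of 98 named. At week 8 against control week 1, 7 rose and 7 fell (16.1%, beside 14.1% of all genes). Against control week 8, 7 rose and 0 fell, beside 2.8% of all genes higher and 5.29% lower. The changes named next are against control week 1. In that comparison the arrays overlapped for Rfc4, Fen1, Polb and Xrcc6 and not for the others named. Those that rose included Chek1, the checkpoint kinase below ATR (1.07 ± 0.27), Xrcc3, a homologous recombination gene (1.01 ± 0.31), Rfc4, a clamp loader subunit (0.95 ± 0.29), Rad18, the ubiquitin ligase of PCNA (0.87 ± 0.23), Mgmt, which reverses alkylated guanine (0.65 ± 0.15), and Fen1, the flap endonuclease (0.62 ± 0.19, all SE). Those that fell included Polb, the gap-filling polymerase of base excision repair (-0.91 ± 0.29), Mnat1, a subunit of the kinase module of TFIIH (-0.76 ± 0.21), Rad52 (-0.68 ± 0.18), Xrcc6, the Ku70 subunit of end joining (-0.59 ± 0.17), and Cul4b, a scaffold of the DDB1 ligase (-0.49 ± 0.13).

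Replication genes were counted beside them. At week 8 against control week 1, 6 of 23 rose and 1 fell, and against control week 8, 5 rose and 0 fell, beside 2.8% and 5.29% of all genes. Their median change there was 0.23, beside 0.06 for all genes. Prim1, the primase subunit, changed by 1.13 ± 0.21 (SE), Rrm2, the ribonucleotide reductase subunit, by 1.08 ± 0.21 and Mcm4, of the replicative helicase, by 0.83 ± 0.21. Of 19 mitosis genes 4 rose against control week 8, and Mki67, the proliferation marker, differed by 0.29 ± 0.14 and did not pass (adjusted p = 0.179 in limma).

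Of the 17 p53 target genes, 0 rose and 2 fell at week 8 against control week 1 (limma, 3 higher and 4 lower at an unadjusted p below 0.05). All genes stood at 5.72% higher and 8.35% lower. The 2 were Btg2 (-0.86 ± 0.13) and Gadd45a (-0.75 ± 0.18). The mean level of Btg2 was 8.96 in control week 1, 8.53 in control week 8 and 8.10 at UV week 8. Its control groups did not overlap, so part of the difference was present without UV. For Gadd45a the corresponding means were 8.71, 8.59 and 7.96, and its control groups overlapped. At week 6, 2 of the 17 rose and 1 fell, beside 5.29% and 7.65% of all genes. At week 4, 0 rose and 1 fell, beside 0.517% and 1.16%, with 4 higher and 1 lower at an unadjusted p below 0.05. Cdkn1a, the p53-induced cell cycle inhibitor, differed by -0.02 ± 0.32 at week 8 (adjusted p = 0.977 in limma) and by 0.62 ± 0.32 at week 4 (adjusted p = 0.454 in limma).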

How the data were processed

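RNA of mouse dorsal skin was measured on 21 Affymetrix whole-genome mouse arrays, 3 per group in 7 groups. The methods speak of a design with fewer groups than the labels give, and the labels were followed. The deposited values are linear intensities that the authors made with the Microarray Suite 5 preprocessor in Expression Console 1.4 per the methods, while the submitters' processing notes name RMA. Array medians ran from 30.14 to 33.29, and no further normalization was applied. Intensities below 1 were set to 1 and log2 was taken. Probe sets that reached the 20th percentile of an array in at least 1 array were kept (40540 of 45101, the 64 control probe sets left out). A linear model over all groups was fitted with limma 3.58.1 in R 4.3.3 (14 residual degrees of freedom) after tests on simulated data, with Benjamini-Hochberg adjustment and a threshold of 0.05. Each gene took the values of the brightest probe set (by mean log2) annotated to it alone. Exact permutation of 3 against 3 arrays cannot go below p = 0.1. The alternatives varied the filter, normalization, arrays, probe set rule, call rule, covariates and array weights, and all but the restriction to 13 arrays, chosen after seeing the data, were planned. Members and lists were chosen with earlier results of these data known. Any of the 38 genes could be named, with values per array for those called and for Xpc, Xpa, Ddb2, Polh and Pcna. Of each other list at most 4 called genes of largest week 8 change were named, plus Mki67 and Cdkn1a. Plots were drawn with matplotlib 3.10.9 in Python 3.11.15 with pandas 2.3.3. The number of arrays limits the precision.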

Additional observations from a re-analysis of the deposited data

Results flagged for a closer look

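In 4 repair genes the UV groups themselves differed by time, with late weeks (6 and 8) set against early weeks (1 and 2), 6 arrays each. Xpc differed by -0.48 (adjusted p = 0.00563 in limma) and Atm by -0.53 (adjusted p = 0.00362 in limma), both lower late. Cetn2 differed by 0.37 (adjusted p = 0.0271 in limma) and Exo1 by 0.50 (adjusted p = 0.0408 in limma), both higher late. The second probe sets of Atm and of Cetn2 had the opposite sign at week 8. With each array left out in turn, Xpc and Atm were called in all 21 fits, Cetn2 in 15 and Exo1 in 5, and in the 13 arrays of lower beta-actin ratio none of the 4 passed (Exo1 0.14, adjusted p = 0.76 in limma). The groups of Atm did not overlap, and those of the other genes did. Late and early mice also differed in age and in UV dose, which was raised over the weeks to a ceiling of 4 MED. A beta-actin ratio above 4 was found in 4 late and 2 early arrays. The part of age, dose or RNA quality in these differences was not tested. No unexposed mice were sampled at weeks 2, 4 and 6.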

How the results depend on the processing

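Of 19 calls (a gene in a comparison), 18 were still called with no intensity filter, 19 with the percentile reached in at least 3 arrays, 11 after quantile normalization, 3 with only the groups compared in the fit, 8 with the mean of all probe sets, 15 with the beta-actin ratio as covariate, 19 with the Gapdh ratio, 18 with array weights and 2 in the 13 arrays of lower ratio, an alternative chosen after seeing the data. With the mean of all probe sets the week 8 change of Cetn2 turned to -0.000231. The counts of genes called higher and lower moved most with array weights, to 8 and 4 at UV week 1, 1 and 1 at week 4, 4 and 8 at week 6, 12 and 8 at week 8 against control week 1, 11 and 6 against control week 8 and 11 and 5 over all UV weeks, with 6 lower late against early. With the Gapdh ratio, 3 were higher at week 6, 7 at week 8, 7 higher and 3 lower against control week 8, and 8 and 4 over all UV. With the beta-actin ratio, 2 were higher and 8 lower at week 6, 1 higher at week 8 against either control, 2 lower over all UV and 1 higher late. In the 13 arrays, 1 was lower at week 4, 2 at week 6, 0 higher and 0 lower at week 8 against control week 1, 0 higher against control week 8, 2 and 2 over all UV, and 0 and 0 late. Quantile normalization gave 1 and 1 at week 6, 1 lower at week 8, and 5 and 0 over all UV. The mean of probe sets gave 1 and 3 at week 6, 1 and 1 at week 8, 1 lower against control week 8, 2 and 2 over all UV, and 0 higher late. With only the groups compared, 0 were lower at week 6, 0 and 0 changed at week 8, 0 rose against control week 8, and 0 rose and 1 fell late. The methods' 2-fold rule, leaving out genes that differ between the controls, gave 0 lower at week 6, 0 and 0 at week 8, 1 higher against control week 8 (Exo1), 0 and 0 over all UV, and 0 and 0 late. The calls over all 17403 genes moved as well. At week 8 against control week 1 they were 996 higher and 1454 lower in the main fit. They were 1214 and 1053 after quantile normalization, and 744 and 1327 with the beta-actin ratio as covariate. For the other settings no share of all genes is given here, so those counts are not particular to repair genes. The cause of these differences was not tested.

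With each array left out in turn, the count at UV week 1 was 0 to 1 higher (1 without array 116), at week 6 it was 0 to 3 higher and 0 to 7 lower, and at week 8 it was 1 to 8 higher and 1 to 10 lower against control week 1. Against control week 8 it was 1 to 9 higher and 0 to 6 lower, over all UV 1 to 8 and 0 to 5, and late against early 0 to 4 and 2 to 7. The highest counts came without array 551, where the share of all genes called also rose. That share was 40.6% at week 8 against control week 1 and 37.3% against control week 8. The lowest count at week 6, 0 lower, came without array 13, and the week 8 counts of 1 and 1 came without array 13, 552 or 555. No paired analysis was possible because the array numbers are not shared between groups.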
